A study of Mus musculus with 12 samples.

Results

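The mammalian circadian clock is a transcriptional feedback loop, and 10 of its genes were followed in mouse fibroblasts deprived of oxygen. The genes were taken by name from the table of raw counts: Arntl, Per1, Per2, Per3, Cry1, Cry2, Nr1d1, Bhlhe40, Bhlhe41 and Dbp, 10 of the 54446 genes listed. All 10 had enough counts to be tested, as did 14724 genes in the whole table. In the loop, BMAL1 (the product of Arntl) pairs with CLOCK and switches on genes that carry E-boxes. Among these are the Per and Cry genes, whose products block BMAL1 and CLOCK, and Nr1d1, whose product REV-ERBα represses Arntl through ROR elements. DEC1 and DEC2, the products of Bhlhe40 and Bhlhe41, bind E-boxes as repressors, are clock-controlled, and are also known for their induction in low oxygen. Dbp is an output gene of the loop and codes for an activator that binds D-boxes.

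RNA-seq was performed on NIH3T3 cells, an established mouse embryo fibroblast line, and on ΔN-VEGF cells, derived from NIH3T3 by CRISPR-Cas9 deletion of the coding region of N-VEGF, the N-terminal part of the long VEGF-A isoform. Both lines were kept in medium with serum for 16 h, either in normoxia or in hypoxia below 0.2% oxygen, which gives 4 groups of 3 samples: wild-type normoxia, wild-type hypoxia, ΔN-VEGF normoxia and ΔN-VEGF hypoxia. The deleted cells went through cassette insertion, isolation of clones, excision of the cassettes by VCre recombinase and sorting, steps that the wild-type cells are not described as having shared, so the deletion and the history of the line cannot be told apart. Neither a step that synchronizes the clock nor the clock time of harvest is given in the sources used here, and each condition was sampled at a single time.

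Each sample held 30519052 to 43056690 counts on genes, of which the 10 clock genes took 0.024% to 0.106%. Values are given as CPM, a sample's counts scaled to a common total with TMM factors. In normoxia, 1 sample of each line stood apart from its replicates over the whole transcriptome. Across all tested genes, log2 CPM of wild-type normoxia replicate 2 correlated at 0.956 and 0.957 with replicates 1 and 3, which correlated at 0.996 with each other, and ΔN-VEGF normoxia replicate 2 correlated at 0.986 with both of its replicates. Replicates of the hypoxia groups correlated at 0.994 to 0.996. Both normoxia replicates numbered 2 are kept in the comparisons. Counts of called clock genes, and many of the values that move with these samples, are also given without both of them. They were singled out by their deviation in these same data, so p-values without them are optimistic. The counts of Vegfa do not check the labels, because the deletion takes away a part of its reading frame and the table counts whole genes. The summed level of 8 fibroblast markers was 16800 to 23200 CPM in wild-type normoxia and 19800 to 21200 CPM in ΔN-VEGF normoxia, and it was higher in hypoxia, at 26900 to 29100 CPM in wild-type and 40500 to 42600 CPM in ΔN-VEGF cells. Of 4 blood and macrophage markers, 3 had at most 3 counts in every sample, and the summed level was 0.867 to 9.03 CPM in normoxia and 28.8 to 53.8 CPM in hypoxia. The summed level of 4 endothelial markers was 2.69 to 5.27 CPM in normoxia and 7.72 to 25.7 CPM in hypoxia. That of 4 epithelial markers was 3.31 to 3.45 CPM in wild-type normoxia and 8.31 to 10 CPM in wild-type hypoxia, and 2.2 to 3.32 CPM in ΔN-VEGF cells. Fat cell and muscle markers summed to at most 0.883 CPM in any sample. The sums do not speak for each marker. In wild-type cells the fibroblast rise lay mostly in Vim (means of 6160 CPM in normoxia and 14200 CPM in hypoxia). Col1a1, Col1a2 and Fn1 did not rise there, Pdgfrb and Thy1 fell in both lines, and Lum had at most 6 counts. The rises of the blood, endothelial and epithelial sums lay mostly in Csf1r, Cdh5 and Krt14. The part of these cells or of these transcripts in the results was not tested.

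The loop acts through short promoter elements, and stretches of promoters are shown to set out which members hold which of these letters. Promoter sequences (250 bases before to 50 bases after the start of a transcript, RefSeq, GRCm38.p6) were found for 8 of the 10 genes, with 2 promoters each for Arntl and Per1. Bhlhe40 and Per2 had no entry. The perfect E-box, CACGTG, was present in the promoters of Bhlhe41, Cry1 and Per1 and in 7.15% of 32851 promoters of the same length. In the following lines capitals mark the E-box.
Bhlhe41, chr6:145865556-145865585, minus strand: tggtacgttccgCACGTGagctgggtgctg
Cry1, chr10:85185097-85185126, minus strand: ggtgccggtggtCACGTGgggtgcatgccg
Per1, chr11:69098771-69098800, plus strand: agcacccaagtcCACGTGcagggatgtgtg

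The related E′-box, CACGTT, was found in Cry1, Cry2 and Nr1d1 and in 4.68% of all promoters, both strands being searched. Cry2, which among the 10 genes rose the most in both lines after the DEC genes, held no perfect E-box in this window, and its E′-box is shown beside that of Nr1d1. Both read AACGTG, the complement of the motif, on the strand of the gene.
Cry2, chr2:92434218-92434247, minus strand: acacatggtgggAACGTGagggggcggagc
Nr1d1, chr11:98775388-98775417, minus strand: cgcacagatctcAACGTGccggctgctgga

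The D-box TTATGTAA was present in 0.938% of promoters and, among these genes, in Per3, which held 2 copies. The ROR element, which was searched for by its degenerate consensus on both strands, occurred in 0.384% of promoters and, among these genes, in the second promoter of Arntl, 26 to 36 bases after the start of the transcript. Capitals mark the D-boxes of Per3 and the ROR element of Arntl.
Per3, first D-box, chr4:151044852-151044881, minus strand: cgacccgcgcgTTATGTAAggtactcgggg
Per3, second D-box, chr4:151044805-151044834, minus strand: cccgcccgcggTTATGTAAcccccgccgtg
Arntl, chr7:113207528-113207557, plus strand: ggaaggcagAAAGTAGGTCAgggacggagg

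The core of the hypoxia response element was searched for as ACGTG, which overlaps both kinds of E-box, and as GCGTG. The form with A occurred in 6 of the 8 genes (Bhlhe41, Cry1, Cry2, Dbp, Nr1d1 and Per1) and in 19.6% of all promoters. The form with G occurred in 7 of the 8 (those 6 and Per3) and in 32.4% of all promoters. Of the 6 genes with the A form, Dbp held it outside an E-box or E′-box, in the following stretch.
Dbp, chr7:45705008-45705037, plus strand: caagggctcgagACGTGattggttcttgcc
A match of letters is a description of the window and was not tested as a binding site. A short form of the D-box, TTATGNAA, was present in Per1 and Per3 and in 3.38% of promoters.

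The first comparison asked how the clock genes of wild-type cells stood after hypoxia. Transcripts of both DEC repressors and of Cry2 rose the most, Arntl rose less, and Dbp and Per3 fell. Per1, Per2, Cry1 and Nr1d1 did not pass the test. With edgeR (quasi-likelihood F test, p adjusted by Benjamini-Hochberg over all genes tested), 4 of the 10 genes were higher in hypoxia (18.2% of all tested genes were) and 2 were lower (18.3% of all tested genes), so that 6 were called against a background of 36.5%. The samples of the groups did not overlap for 5 genes, all higher in hypoxia, where 45% of tested genes did not overlap. The median log2 fold change of the 10 genes was 0.47, against -0.07 over all tested genes. In bulk RNA a change in the number of cells that express a gene and a change in its RNA per cell cannot be told apart.

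**Figure D1:**
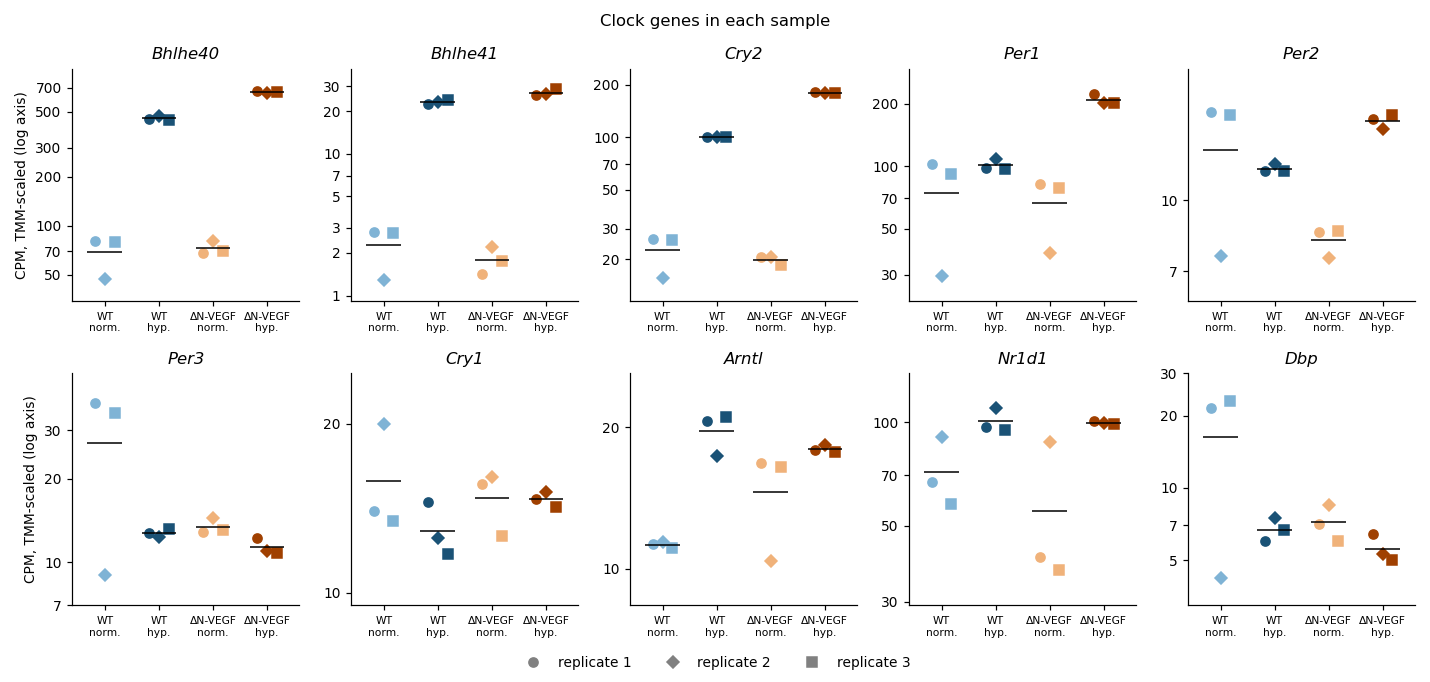
Level of each clock gene in the 12 samples, as TMM-scaled CPM on a log axis, by group (WT, wild-type; norm., normoxia; hyp., hypoxia). Marker shapes stand for replicate numbers, which have no order, and black lines for group means of 3 samples. Hypoxia samples lie close together, Bhlhe40 at 445 to 469 CPM in wild-type cells, while diamonds (replicate 2) stand apart in normoxia, as for Dbp at 4.23 CPM in wild-type cells against 21.5 and 23.1.

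Bhlhe40 (ENSMUSG00000030103; chr6:108660629-108666925, plus strand, 5 exon blocks; coordinates here and below are those of the files, on GRCm38) codes for DEC1. Its level in wild-type normoxia was 80.9, 47.3 and 79.6 CPM in replicates 1, 2 and 3, and in wild-type hypoxia 450, 469 and 445 CPM. Every hypoxia sample was far above every normoxia sample, and the lowest normoxia sample was replicate 2. The log2 fold change was 2.71 ± 0.18 (SE, n = 3 per group), a 6.56-fold rise (edgeR adjusted p = 1e-06).

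Bhlhe41 (ENSMUSG00000030256; chr6:145858243-145865558, minus strand, 3 exon blocks), which codes for DEC2, was the scarcer of the pair. It stood at 2.83, 1.28 and 2.75 CPM in wild-type normoxia, which corresponds to 55 to 143 counts, and at 22.6, 23.3 and 24 CPM in hypoxia. The groups did not overlap, and the rise was 10.1-fold (log2 fold change 3.34 ± 0.26, edgeR adjusted p = 3.3e-06). Of the exon bases of Bhlhe41, 19% are shared with Gm43909 on the opposite strand, and the kit did not mark strand, so reads there cannot be assigned to either gene.

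Per kilobase of exon, Bhlhe40 averaged 14.7 CPM and Bhlhe41 0.34 CPM in wild-type normoxia, and 96.6 and 3.46 CPM in hypoxia. Both DEC genes thus rose while Bhlhe40 stayed the more abundant transcript. The ratio of Bhlhe40 to Bhlhe41 reads within a sample, which needs no scaling, was 28.6, 37 and 28.9 in wild-type normoxia and 19.9, 20.1 and 18.6 in hypoxia, without overlap.

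Among the repressors that act on BMAL1 directly, Cry2 (ENSMUSG00000068742; chr2:92403646-92434043, minus strand) rose with the DEC genes. It stood at 26.1, 15.6 and 25.7 CPM in wild-type normoxia and at 101, 101 and 99.9 CPM in hypoxia. All hypoxia samples were above all normoxia samples, a 4.48-fold rise (log2 fold change 2.17 ± 0.17, edgeR adjusted p = 3e-06). Cry1 (ENSMUSG00000020038; chr10:85131700-85185064, minus strand), its paralog, was at 14, 20 and 13.4 CPM in normoxia and at 14.5, 12.5 and 11.7 CPM in hypoxia. These groups overlapped, and the difference of Cry1 was -0.30 ± 0.16 on the log2 scale (edgeR adjusted p = 0.18).

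The period genes did not move together in wild-type cells. Per1 (ENSMUSG00000020893; chr11:69095217-69109960, plus strand), the most abundant of them, was at 102, 29.7 and 91.6 CPM in normoxia and at 98, 108 and 97.1 CPM in hypoxia, with a log2 fold change of 0.44 ± 0.38 (edgeR adjusted p = 0.39). Per2 (ENSMUSG00000055866; chr1:91415982-91459324, minus strand) was at 15.6, 7.57 and 15.4 CPM in normoxia and at 11.6, 12 and 11.6 CPM in hypoxia, a difference of -0.13 ± 0.22 (adjusted p = 0.66). For both genes all hypoxia samples were above normoxia replicate 2, and for Per2 they were also below replicates 1 and 3.

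Per3 (ENSMUSG00000028957; chr4:151003652-151044665, minus strand) stood at 37.5, 9.01 and 34.6 CPM in wild-type normoxia and at 12.8, 12.3 and 13.2 CPM in hypoxia. Its hypoxia samples were below replicates 1 and 3 and above replicate 2. The fall passed the test narrowly (log2 fold change -1.08 ± 0.38, edgeR adjusted p = 0.045). Dbp (ENSMUSG00000059824; chr7:45705088-45710203, plus strand) had the same shape, with 21.5, 4.23 and 23.1 CPM in normoxia and 6, 7.47 and 6.65 CPM in hypoxia, and a log2 fold change of -1.28 ± 0.46 (adjusted p = 0.049). Dbp shares 18% of its exon bases with Sphk2 on the opposite strand.

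Arntl (ENSMUSG00000055116; chr7:113207465-113314126, plus strand), the activator of the loop, rose 1.74-fold. It was at 11.3, 11.4 and 11.1 CPM in wild-type normoxia, with replicate 2 the highest, at 1.02 times the mean of the others, and at 20.6, 17.4 and 21 CPM in hypoxia (log2 fold change 0.80 ± 0.16, edgeR adjusted p = 0.003). Nr1d1 (ENSMUSG00000020889; chr11:98767932-98775333, minus strand), whose product represses Arntl, was at 66.8, 90.6 and 58 CPM in normoxia and at 96.9, 110 and 95 CPM in hypoxia. The groups of Nr1d1 did not overlap, but the difference of 0.49 ± 0.28 on the log2 scale did not pass the test (edgeR adjusted p = 0.20). Nr1d1 shares 8.55% of its exon bases with Thra on the opposite strand.

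Without both normoxia replicates numbered 2, 8 of the 10 genes were called in wild-type cells, 5 higher and 3 lower (edgeR), where 65.3% of all tested genes were called. Nr1d1 was then higher by 0.69 ± 0.072 (adjusted p = 5.2e-08) and Per2 lower, at -0.40 ± 0.073 (8e-05). Dbp and Per3 stood at -1.74 ± 0.10 and -1.49 ± 0.072. The falls of Dbp and Per3 lost their call in 14 and 13 of the 20 alternative analyses, while Bhlhe40, Bhlhe41, Cry2 and Arntl kept theirs in all 20.

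**Figure D2:**
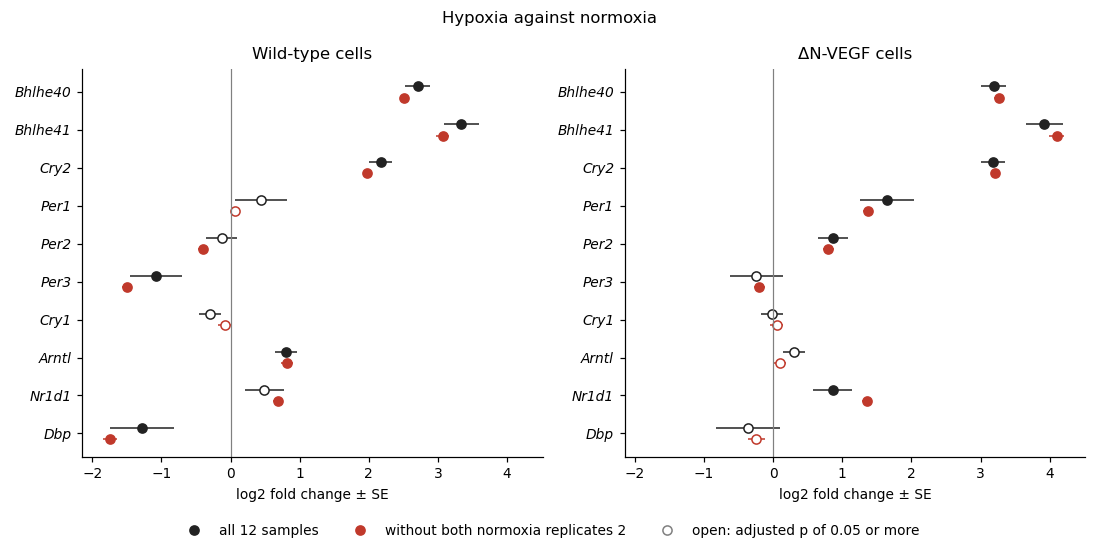
Log2 fold change of each clock gene in hypoxia against normoxia, in wild-type cells (left) and ΔN-VEGF cells (right), with bars of 1 SE, for all 12 samples (black) and without both normoxia replicates numbered 2 (red). Filled points passed the test (adjusted p below 0.05). Bhlhe41, Bhlhe40 and Cry2 stand at the right in both lines, and Dbp and Per3 at the left in wild-type cells.

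In ΔN-VEGF cells the same question gave rises and no falls. Both DEC genes, Cry2, Per1, Per2 and Nr1d1 were higher in hypoxia, and Arntl, Cry1, Per3 and Dbp did not pass the test. The 6 genes called by edgeR were all higher (26.9% of all tested genes were higher), 0 were lower (26.4% of all tested genes were), and 53.3% of tested genes were called in either direction. For 7 genes all hypoxia samples were above all normoxia samples and for 1, Per3, all were below, where 70.5% of tested genes did not overlap. The median log2 fold change of the 10 genes was 0.86, against -0.01 over all tested genes.

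Bhlhe40 stood at 67.8, 80.6 and 70 CPM in ΔN-VEGF normoxia and at 671, 655 and 661 CPM in hypoxia. Here replicate 2 was the highest normoxia sample, and the rise was 9.1-fold (log2 fold change 3.19 ± 0.18, edgeR adjusted p = 1.9e-07). Bhlhe41 went from 1.42, 2.2 and 1.74 CPM to 26.2, 26.5 and 28.5 CPM, a 15.1-fold rise (3.92 ± 0.27, adjusted p = 6.6e-07). The ratio of Bhlhe40 to Bhlhe41 reads was 36.6 to 47.7 in normoxia and 23.2 to 25.6 in hypoxia, again lower in hypoxia without overlap.

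Cry2 stood at 20.5, 20.7 and 18.5 CPM in ΔN-VEGF normoxia and at 183, 179 and 180 CPM in hypoxia, a 9.09-fold rise (log2 fold change 3.18 ± 0.17, edgeR adjusted p = 1.2e-07). Cry1 was at 15.6, 16.1 and 12.6 CPM and at 14.7, 15.1 and 14.2 CPM, a difference of -0.01 ± 0.16 (adjusted p = 0.96). The 95% interval of the Cry1 difference ran from -0.37 to 0.35 on the log2 scale.

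Per1 (82.4, 38.2 and 78.2 CPM in ΔN-VEGF normoxia; 222, 202 and 201 CPM in hypoxia) rose 3.14-fold, with a log2 fold change of 1.65 ± 0.39 (edgeR adjusted p = 0.0045). Per2 went from 8.51, 7.49 and 8.55 CPM to 15.1, 14.3 and 15.4 CPM, a 1.83-fold rise (0.87 ± 0.22, adjusted p = 0.0067). Both period genes were higher in every hypoxia sample than in every normoxia sample. Per3, at 12.9, 14.4 and 13.1 CPM in normoxia and 12.2, 11 and 10.8 CPM in hypoxia, differed by -0.24 ± 0.38 (adjusted p = 0.61).

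Nr1d1 stood at 40.5, 87.5 and 37.1 CPM in ΔN-VEGF normoxia and at 101, 99.3 and 99 CPM in hypoxia. Replicate 2 was 2.26 times the mean of the other normoxia samples and close to the hypoxia level, and the rise over all samples was 1.82-fold (log2 fold change 0.86 ± 0.28, edgeR adjusted p = 0.024), a call lost in 6 of 20 alternatives. Arntl was at 16.8, 10.4 and 16.5 CPM in normoxia and at 17.9, 18.3 and 17.7 CPM in hypoxia (0.30 ± 0.16, adjusted p = 0.15). Dbp was at 7.08, 8.48 and 6 CPM and at 6.45, 5.28 and 5.03 CPM (-0.36 ± 0.46, adjusted p = 0.53). The groups of Arntl did not overlap, and those of Dbp did.

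Without both normoxia replicates numbered 2, 7 of the 10 genes were called in ΔN-VEGF cells, 6 higher and 1 lower (edgeR, 71.4% of all tested genes called). The gene added was Per3, at -0.20 ± 0.08 (adjusted p = 0.032). Nr1d1 was then higher by 1.36 ± 0.076. With total counts in place of TMM factors, which shifts the median of all tested genes to -0.41 in this comparison and to -0.30 in wild-type cells, 5 genes were called in ΔN-VEGF cells, 4 higher and 1, Cry1, lower (-0.41, adjusted p = 0.018), where 59.8% of all tested genes were called. In wild-type cells that fit called 7, 4 higher and 3 lower, where 45.6% were called. In ΔN-VEGF cells it lost the calls of Nr1d1 and Per2 and gave Arntl a log2 difference of -0.11 in place of 0.30.

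The next comparison asked whether the clock genes differed between the lines before hypoxia. Over all 3 samples per group, none of the 10 genes passed the edgeR test (4.36% of all tested genes did), 4 had an unadjusted p below 0.05 and 0 were called by DESeq2. The groups overlapped for all 10 genes, where 16.3% of tested genes did not overlap. The largest differences were those of Dbp at -1.18 ± 0.46 (adjusted p = 0.18) and Per3 at -1.01 ± 0.38 (adjusted p = 0.17). The fit with replicate number as a block also called 0 genes. Of all tested genes 1.39% were higher and 2.97% lower.

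This count turned on the normoxia replicates numbered 2. In wild-type cells replicate 2 was the lowest of the 3 samples for 7 of the 10 genes and the highest for Arntl, Cry1 and Nr1d1. The mean of replicates 1 and 3 was 5.27 times replicate 2 for Dbp, 4 times for Per3 and 3.25 times for Per1. In ΔN-VEGF cells replicate 2 was the lowest for Arntl, Per1 and Per2 and the highest for the other 7 genes. For Per1 it was the lowest sample in both lines, at 29.7 and 38.2 CPM, and for Nr1d1 the highest in both, at 90.6 and 87.5 CPM. What set these samples apart was not tested.

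Without both of them, which leaves 2 samples per normoxia group, 9 of the 10 genes were called by edgeR, 1 higher and 8 lower in ΔN-VEGF cells. In the same fit 53.6% of all tested genes were called. Arntl was higher by 0.58 ± 0.09, with 16.8 and 16.5 CPM against 11.3 and 11.1. The lower genes were led by Dbp at -1.75 ± 0.11, with 7.08 and 6 CPM against 21.5 and 23.1, and by Per3 at -1.46 ± 0.079, with 12.9 and 13.1 CPM against 37.5 and 34.6. Per2, Bhlhe41 and Nr1d1 followed at -0.85, -0.82 and -0.67, and Cry2, Per1 and Bhlhe40 at -0.40, -0.25 and -0.21. Cry1 stood at 0.05 ± 0.11 (adjusted p = 0.70). Leaving out the wild-type sample alone gave 5 called genes, all lower (Per2, Per3, Cry2, Bhlhe41 and Dbp), where 48.9% of tested genes were called, and leaving out the ΔN-VEGF sample alone gave 2, Arntl higher and Nr1d1 lower, where 4.18% were called.

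**Figure D3:**
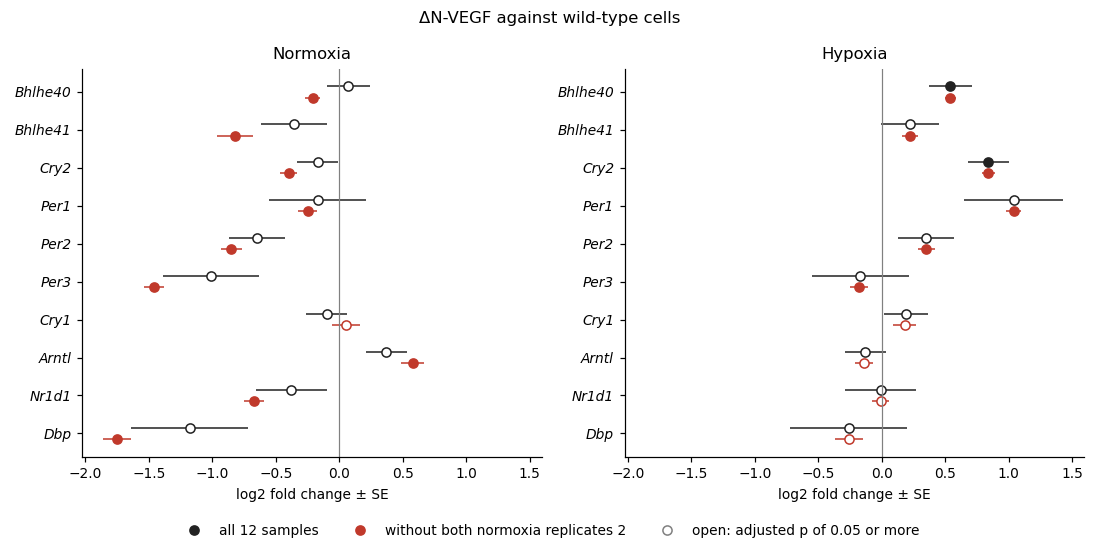
Log2 fold change of each clock gene in ΔN-VEGF against wild-type cells, in normoxia (left) and hypoxia (right), with bars of 1 SE, for all 12 samples (black) and without both normoxia replicates numbered 2 (red). Filled points passed the test (adjusted p below 0.05). In normoxia no gene passes with all samples and 9 pass without the replicates numbered 2, Dbp at -1.75. In hypoxia, where the same samples are compared in both fits, the values hardly move and the bars shorten.

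In hypoxia the lines were compared over samples that lay close together. Cry2 and Bhlhe40 were higher in ΔN-VEGF cells, and the other 8 genes did not pass the test. Thus 2 of 10 genes were called by edgeR, both higher (10.8% of all tested genes were higher, 9.36% lower and 20.1% called). For 5 genes every ΔN-VEGF sample was above every wild-type sample and for 1, Per3, every one was below, where 59.8% of tested genes did not overlap.

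Cry2 stood at 183, 179 and 180 CPM in ΔN-VEGF hypoxia against 101, 101 and 99.9 CPM in wild-type hypoxia, 1.8-fold higher (log2 fold change 0.84 ± 0.16, edgeR adjusted p = 0.0048). This call was kept in all 20 alternatives. Bhlhe40, at 671, 655 and 661 CPM against 450, 469 and 445, was 1.46-fold higher (0.54 ± 0.17, adjusted p = 0.044), a call lost in 11 of 20 alternatives. Bhlhe41, at 26.2, 26.5 and 28.5 CPM against 22.6, 23.3 and 24, did not overlap between the lines but differed by 0.22 ± 0.23 (adjusted p = 0.57).

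Per1 had the largest difference in hypoxia, 222, 202 and 201 CPM against 98, 108 and 97.1, but its spread in normoxia enters the shared estimate of error, and the log2 fold change of 1.04 ± 0.39 did not pass (edgeR adjusted p = 0.081). Without both normoxia replicates numbered 2 the value was 1.04 ± 0.059 (adjusted p = 1.4e-11), and 6 of the 10 genes were called, 5 higher (Cry2, Bhlhe40, Per1, Per2 and Bhlhe41) and Per3 lower, where 55.8% of tested genes were called. The estimate of Per1 thus held and its SE shrank once samples picked for their deviation were left out, so this p-value is optimistic. With only the 6 hypoxia samples in the fit, 5 were called, all higher (57% of tested genes were called). The differences of Arntl, Cry1, Nr1d1 and Dbp lay between -0.26 and 0.19 with all samples.

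The difference between the hypoxia responses was tested as an interaction. By edgeR 1 of the 10 genes passed, Cry2, where 3.36% of all tested genes did, 2.21% with a larger and 1.15% with a smaller value in ΔN-VEGF cells. Its response was larger in ΔN-VEGF cells by 1.02 ± 0.23 on the log2 scale (adjusted p = 0.038), that is 9.09-fold against 4.48-fold. Leaving out 1 sample at a time gave differences of 0.90 to 1.21 and ended the call for 10 of the 12 samples, the exceptions being both normoxia replicates numbered 2. The fit with replicate number as a block also ended it (1.0 ± 0.23, adjusted p = 0.05 after rounding), as did total counts (0.87, adjusted p = 0.086). Per2 differed by 1.0 ± 0.31 (adjusted p = 0.099) and Per1 by 1.21 ± 0.54 (adjusted p = 0.23), and neither passed. The differences were positive for 9 of the 10 genes, Arntl being the exception at -0.50 ± 0.23 (adjusted p = 0.24). The responses share no samples, but the normoxia groups carry the replicates numbered 2. Without both of those, 9 genes passed (52.8% of all tested genes did), 8 with a larger value in ΔN-VEGF cells and Arntl with a smaller one (-0.72 ± 0.12), and in that fit Dbp differed by 1.5 ± 0.16, Per1 by 1.30 ± 0.094 and Per3 by 1.29 ± 0.11.

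With a fold change of at least 2 asked for besides the adjusted p, 5 members were called in wild-type cells after hypoxia (15.7% of all tested genes), 4 in ΔN-VEGF cells (27.2%), 0 between the lines in normoxia (2.17%), 0 in hypoxia (6.81%) and 1, Cry2, in the difference between responses (1.56%).

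Ratios of 2 genes within a sample need no scaling between samples, and are given without a test. Whether they report the state of the loop was not tested. Dbp and Arntl peak at different times of the cycle in tissues with a running clock. The ratio of Dbp to Arntl reads was 1.89 and 2.08 in wild-type normoxia replicates 1 and 3 and 0.369 in replicate 2. It was 0.291 to 0.43 in wild-type hypoxia, 0.363 to 0.815 in ΔN-VEGF normoxia and 0.285 to 0.36 in ΔN-VEGF hypoxia. Thus 2 wild-type normoxia samples held more Dbp than Arntl reads and the other 10 samples held fewer.

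The ratio of Nr1d1 to Arntl reads, a repressor and its target, was 2.4 and 2.24 in ΔN-VEGF normoxia replicates 1 and 3 and 8.42 in replicate 2. It was 5.89, 7.92 and 5.23 in wild-type normoxia, 4.52 to 6.33 in wild-type hypoxia and 5.43 to 5.66 in ΔN-VEGF hypoxia. Replicate 2 was the highest of its group in both normoxia groups and in wild-type hypoxia. The ratio of Per1 to Per2 reads in wild-type cells was 3.92 to 6.5 in normoxia against 8.36 to 9.04 in hypoxia, and 5.1 to 9.69 and 13.1 to 14.6 in the ΔN-VEGF groups. It was higher in hypoxia without overlap in both lines, and lowest in replicate 2 of both normoxia groups.

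**Figure D4:**
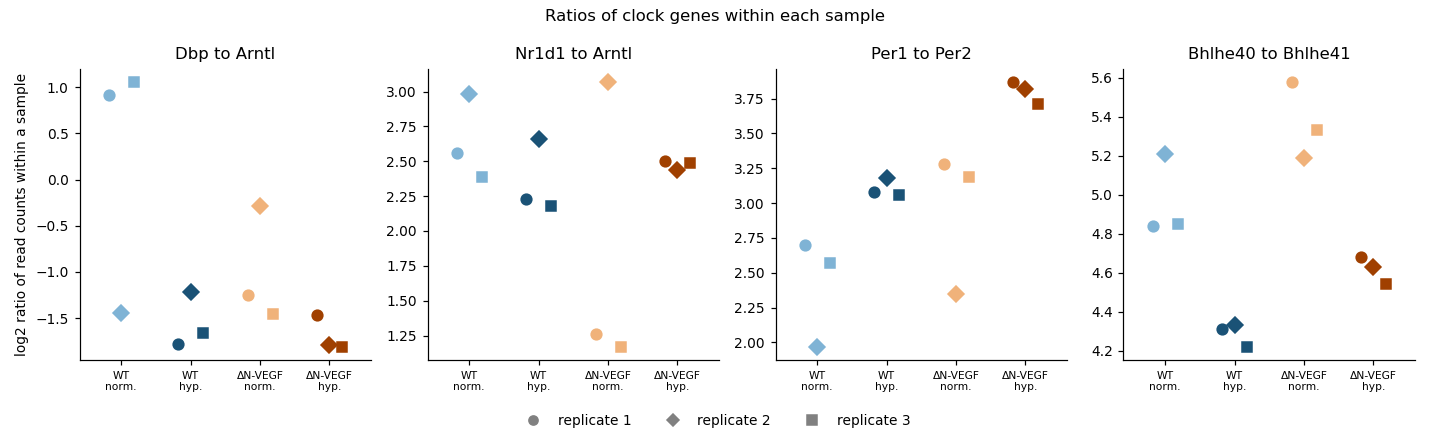
Log2 ratio of the read counts of 2 clock genes within each sample, by group (WT, wild-type; norm., normoxia; hyp., hypoxia), with marker shapes for replicate numbers. Each panel has its own axis, which does not start at 0. In normoxia the diamonds (replicate 2) stand apart, at -1.44 for Dbp to Arntl in wild-type cells and at 3.07 for Nr1d1 to Arntl in ΔN-VEGF cells, and in hypoxia the widest spread within a group is that of Dbp to Arntl in wild-type cells, from -1.78 to -1.22.

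The order of the 10 genes per kilobase of exon placed Nr1d1 first in normoxia, at 23.3 CPM in wild-type and 17.9 CPM in ΔN-VEGF cells, followed by Bhlhe40 (14.7 and 15.5 CPM) and Per1 (13.2 and 11.8 CPM), whose ranges overlapped. In ΔN-VEGF normoxia this order rests on replicate 2: Nr1d1 was at 13.1, 28.4 and 12.1 CPM per kilobase, and in replicates 1 and 3 it was below Bhlhe40 (14.4 and 14.9) and Per1 (14.6 and 13.9). Bhlhe41 was last in both lines, at 0.34 and 0.266 CPM. In hypoxia Bhlhe40 came first, at 96.6 and 141 CPM, and Per3 last, at 1.33 and 1.18 CPM. Nr1d1, at 32.7 and 32.5 CPM, followed Bhlhe40 in wild-type cells, and in ΔN-VEGF cells Per1, at 37 CPM, stood between them.

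Across the 12 samples, log2 CPM of Bhlhe40 correlated at 0.994 with Cry2 and at 0.992 with Bhlhe41, and Dbp at 0.985 with Per3, which was the closest to Dbp of 8523 genes of at least 10 CPM. The samples share 4 groups and the same libraries, so these values describe the pattern over groups and carry no test. The genes most like Bhlhe40 were Appl2 (0.999) and Tnfaip3 (0.997), and those most like Bhlhe41 were Hyal1 (0.997) and Nat6 (0.995). Per2 was followed by Fbxl5 (0.98) and Bcl2l11 (0.976), Nr1d1 by Sepsecs (0.96) and Stk19 (0.957), and Dbp, after Per3, by Tap2 (0.953).

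The loop has further members and regulators, and 26 of them were listed by role. Of these 23 were tested, and Npas2, Rorb and Fbxl21 had at most 5, 2 and 10 counts in any sample. In wild-type cells 6 of 23 rose and 5 fell in hypoxia by edgeR, against 36.5% called among all genes, with a median log2 fold change of -0.05. In ΔN-VEGF cells 11 rose and 7 fell, against 53.3%, with a median of 0.36. Rora is among the 11, but it entered the test only through ΔN-VEGF hypoxia, where it is highest. The filter thus favored its rise. Without both normoxia replicates numbered 2 the counts were 8 higher and 8 lower in wild-type cells (65.3% of all genes called) and 13 higher and 8 lower in ΔN-VEGF cells (71.4%). With total counts they were 5 higher and 8 lower (45.6%), and 6 higher and 8 lower (59.8%).

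Among activators, Clock, the partner of Arntl, stood at 28.3, 39.2 and 28.8 CPM in wild-type normoxia and at 26.7 to 34 CPM in hypoxia (log2 fold change -0.05 ± 0.17, edgeR adjusted p = 0.84), and its difference in ΔN-VEGF cells was -0.37 ± 0.17 (adjusted p = 0.092). Npas2, the other partner, was at 0 to 5 counts. Arntl2, the paralog of Arntl, stayed below 1.3 CPM in every sample and fell in ΔN-VEGF cells (-1.13 ± 0.40, adjusted p = 0.033), a call lost for 4 of 12 samples left out in turn.

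Ciart, whose product CHRONO represses BMAL1 and CLOCK, had the largest rise of the list. It was at 3.63, 3.37 and 2.77 CPM in wild-type normoxia and at 24.8, 28.5 and 25.4 CPM in hypoxia, an 8.05-fold rise (log2 fold change 3.01 ± 0.15, edgeR adjusted p = 1.8e-07). In ΔN-VEGF cells it went from 2.02, 2.96 and 2.72 CPM to 49.9, 51.9 and 50.5 CPM, a 19.8-fold rise (4.31 ± 0.16, adjusted p = 9.9e-09). The groups of Ciart did not overlap in either line, and the interaction passed, at 1.30 ± 0.21 (adjusted p = 0.011). Of the 12 samples left out in turn, wild-type hypoxia replicate 1 ended that call (adjusted p = 0.051).

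Nuclear receptors of the loop moved in different ways. Nr1d2, the paralog of Nr1d1, fell 2.3-fold in wild-type cells, from 30.5, 31.9 and 35.7 CPM to 13.6, 13.1 and 15.9 CPM (log2 fold change -1.20 ± 0.18, edgeR adjusted p = 0.00038), and 2.51-fold in ΔN-VEGF cells (-1.33 ± 0.18, adjusted p = 0.00012). Nr1d1 was called higher in ΔN-VEGF cells and not called in wild-type cells. Rora, whose product activates Arntl through the ROR element, was at 0 to 6 counts in every wild-type sample and at 6, 12 and 10 counts in ΔN-VEGF normoxia, and at 51, 54 and 72 counts in ΔN-VEGF hypoxia. Of the 23 genes, Rora was the only one that passed the filter on low counts through a single group, ΔN-VEGF hypoxia, where it is highest, so its calls are counted but its fold changes and p-values are not given.

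Of the D-box factors, Hlf, an activator related to Dbp, followed the shape of Dbp in wild-type cells, with 82.9, 9.08 and 85.3 CPM in normoxia and 8.31, 7.77 and 9.38 CPM in hypoxia (log2 fold change -2.80 ± 0.67, edgeR adjusted p = 0.0071). In ΔN-VEGF cells it stood at 67.9, 22.9 and 66.1 CPM in normoxia and at 26.3, 24.5 and 24.2 CPM in hypoxia (-1.07 ± 0.63, adjusted p = 0.18). With both normoxia replicates numbered 2 left out, Hlf differed by -3.30 ± 0.072 in wild-type and by -1.43 ± 0.066 in ΔN-VEGF cells, where it was then called (adjusted p = 8.1e-14). Nfil3, the repressor of the same element, was at 79.1, 26.8 and 74.4 CPM and at 129, 137 and 127 CPM in wild-type cells (1.12 ± 0.43, adjusted p = 0.063) and rose in ΔN-VEGF cells, from 89, 27.5 and 87.7 CPM to 197, 203 and 200 CPM (1.56 ± 0.44, adjusted p = 0.011). Without those replicates Nfil3 was called in both lines, at 0.77 ± 0.056 and 1.17 ± 0.057, and with total counts its call in ΔN-VEGF cells was lost (adjusted p = 0.055).

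Among enzymes and outputs, Nampt, which makes a precursor of NAD, rose in both lines by 1.64 ± 0.21 and 1.31 ± 0.21 on the log2 scale, and Klf10, a zinc-finger repressor, by 1.84 ± 0.14 and 2.04 ± 0.14 (edgeR adjusted p at most 0.00032). The kinase gene Gsk3b rose by 0.76 ± 0.11 without the deletion and by 1.53 ± 0.11 with it, and its interaction passed (0.77 ± 0.15, adjusted p = 0.026), but not with total counts (0.61, adjusted p = 0.096) or with 9 of the 12 samples left out in turn (adjusted p up to 0.091). Usp2, a deubiquitinase gene, fell by 1.65 and 2.2 on the log2 scale, and Wee1, whose product holds back mitosis, by 1.53 and 1.99 (adjusted p at most 0.0041). The difference of Wee1 in wild-type cells was -1.04 ± 0.089 without both normoxia replicates numbered 2.

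Timeless and Tipin code for partners at the replication fork. Timeless stood at 34.5, 95.2 and 34.9 CPM in wild-type normoxia and at 29.1, 29.6 and 30 CPM in hypoxia (log2 fold change -0.89 ± 0.32, edgeR adjusted p = 0.049), and in ΔN-VEGF cells it went from 58.8, 69.7 and 61.9 CPM to 11.9, 12.6 and 12.1 CPM (-2.38 ± 0.33, adjusted p = 0.00014). Tipin was at 22.5, 60.2 and 23.1 CPM in wild-type normoxia and at 25.2 to 31.1 CPM in hypoxia (-0.32 ± 0.33, adjusted p = 0.48), and fell in ΔN-VEGF cells (-1.0 ± 0.34, adjusted p = 0.027). In both normoxia groups replicate 2 was the highest sample for Timeless, Tipin and Wee1. Without both of these samples the difference of Timeless in wild-type cells was -0.22 ± 0.06 (adjusted p = 0.003), and that of Tipin turned to 0.32 ± 0.078 (adjusted p = 0.0014). The wild-type call of Timeless was lost with the replicate block (adjusted p = 0.057) and for 9 of 12 samples left out in turn, and the ΔN-VEGF call of Tipin for 4 of 12.

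**Figure D5:**
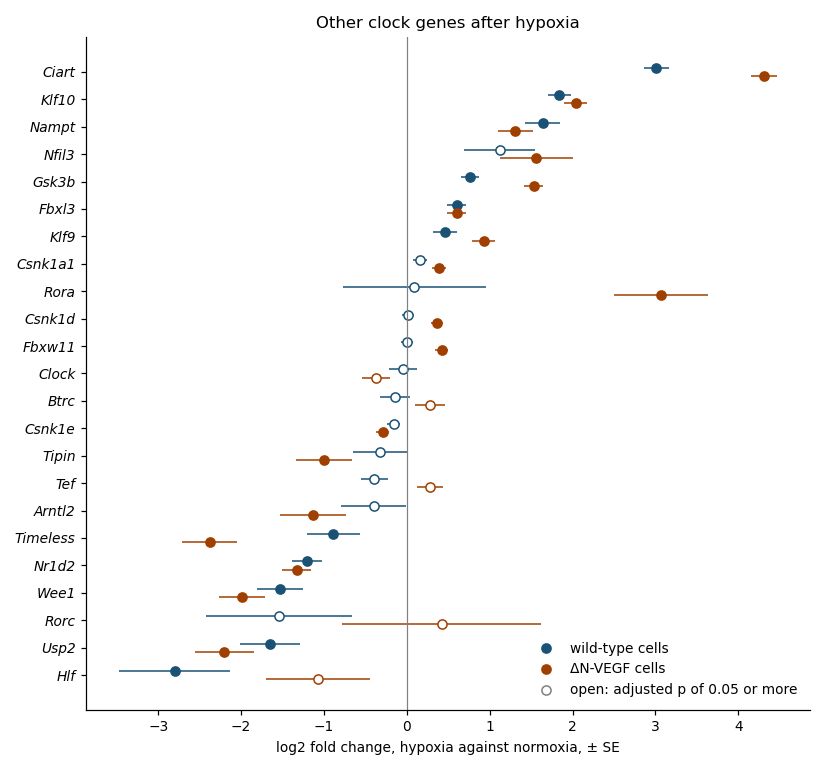
Log2 fold change in hypoxia against normoxia of the 23 other clock genes tested, in wild-type (blue) and ΔN-VEGF cells (brown), with bars of 1 SE, ordered by the value in wild-type cells. Filled points passed the test (adjusted p below 0.05), and Rora entered it only through ΔN-VEGF hypoxia. Ciart lies furthest to the right, at 3.01 and 4.31, and Hlf furthest to the left in wild-type cells, at -2.80.

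Between the lines in normoxia, 0 of the 23 other clock genes passed the edgeR test, 5 had an unadjusted p below 0.05 and DESeq2 called 3, against 4.36% of all tested genes called by edgeR and 9.9% by DESeq2. Without both normoxia replicates numbered 2 the count was 15, 6 higher and 9 lower, against 53.6%. In hypoxia 8 passed, 5 higher and 3 lower in ΔN-VEGF cells, against 20.1% (3 higher and 5 lower with total counts, against 26.8%), among them Ciart at 0.95 ± 0.14 (edgeR adjusted p = 0.0013), Gsk3b at 0.88 ± 0.11 (0.00054), Timeless at -1.28 ± 0.33 (0.019) and Nr1d2 at -0.58 ± 0.18 (0.043). With 1 sample left out at a time, the hypoxia call of Timeless was lost for 6 of 12 samples and that of Nr1d2 for 7. Rora is among the 5 counted as higher, with 6, 0 and 4 counts in wild-type hypoxia, and it entered the tested genes only through ΔN-VEGF hypoxia.

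Genes known to respond to low oxygen were followed in both lines. They were chosen with earlier results of these data known, so their counts are no independent test of the response. All 16 genes of a list of targets of hypoxia-inducible factor rose in wild-type cells, from Pfkfb3 at 0.79 to Ankrd37 at 5.42, and all 16 rose in ΔN-VEGF cells, from Pfkfb3 at 1.66 to Car9 at 5.84 (log2 fold changes, edgeR), where 18.2% and 26.9% of all tested genes rose. Between the lines in hypoxia 5 of the 16 were higher in ΔN-VEGF cells and 0 lower, with a median of 0.45, where 10.8% of all tested genes were higher. With total counts 3 were higher and 1 lower (26.8% of all tested genes called in either direction). With 1 sample left out at a time, 3 to 11 of the 16 were called in hypoxia, the highest without wild-type normoxia replicate 2, where 42.4% of all tested genes were called. In normoxia 4 of the 16 were called between the lines, against 4.36% of all tested genes. Ankrd37 (0.73), Kdm3a (0.47) and P4ha1 (0.36) were higher in ΔN-VEGF cells and Egln3 was lower (-1.19, log2 fold changes), and 0 to 13 were called with 1 sample left out at a time, again the most without wild-type normoxia replicate 2 (48.9%). The medians of the list were 2.84 and 3.29, so that Bhlhe41 lay above the median in both lines and Bhlhe40 below it. Vegfa, from which N-VEGF is made, was at 86.2, 39.4 and 82.6 CPM in wild-type normoxia, 272 to 291 CPM in wild-type hypoxia, 34.2 to 37.3 CPM in ΔN-VEGF normoxia and 419 to 437 CPM in ΔN-VEGF hypoxia.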

How the data were processed

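RNA-seq of 12 samples was used, 3 for each of 4 groups named by the sample titles. The authors prepared libraries with a kit that does not mark strand, sequenced single reads, trimmed them with Trim Galore, aligned them to GRCm38.p6 with TopHat2 2.1.0 and Bowtie2 2.2.6, counted reads per gene with HTSeq-count 0.6.1, and deposited the raw counts, which were used as deposited. The strand setting of the counting is not given in the sources used here. The labels do not say whether replicates are separate cultures, and p-values then measure only the spread between samples. Counts per sample were 30519052 to 43056690.

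Genes were tested with edgeR 4.0.16 in R 4.3.3: filterByExpr, TMM factors, a mean for each group fitted to the 12 samples together, quasi-likelihood F tests, and p-values adjusted by Benjamini-Hochberg for 14724 genes. A gene was called at an adjusted p below 0.05. The SE of an edgeR value is its absolute log2 fold change over the square root of its F statistic. It rests on the spread over all samples of the fit. All 10 members are named. Of the other clock genes, those called with a fold change of at least 2 in any comparison are named, with Clock and Npas2. The members and lists were chosen with earlier results of these data known. Log2 CPM used a prior count of 2, and kilobases are the union of exons in GENCODE vM21, whose bounds for the 10 members equal those in the files. Alternatives were DESeq2 1.42.0, RLE factors, total counts, 2 filters on low counts, only the samples compared, a fold of at least 2, each sample left out, both normoxia replicates numbered 2 left out, and replicate number as a block. The code was tested on simulated data. Same-numbered samples of the lines deviated together in normoxia (r of 0.36 to 0.50 across genes, all 3 pairs), and not in the other comparisons (-0.02 to 0.11). The values given are those of the fit without the block unless a block is named. Replicates 1 and 3 of different lines correlated about as well (0.35 and 0.36), and replicate 2 correlated negatively with both (-0.46 to -0.38), so the correlations show replicate 2 standing apart more than a pairing of each number.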

Additional observations from a re-analysis of the deposited data

Results flagged for a closer look

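The hypoxia response of Cry2 differed between the lines by a test of the difference itself. The interaction was 1.02 ± 0.23 on the log2 scale (edgeR adjusted p = 0.038, n = 3 per group), where wild-type cells rose by 2.17 and ΔN-VEGF cells by 3.18, and every hypoxia sample was above every normoxia sample in both lines. The adjusted p ranged from 2e-10 to 0.11 over 19 alternatives, of which 12 lost the call and none turned its direction. The fit with replicate number as a block was among those that lost it. The Cry2 levels of ΔN-VEGF hypoxia (179 to 183 CPM) and wild-type hypoxia (99.9 to 101 CPM) did not overlap, and those of normoxia did.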

How the results depend on the processing

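Over 50 values of single members (10 genes in 5 comparisons) and 990 alternative values of them, 854 kept direction and side of the threshold, 57 lost a call, 53 gained 1 and 26 changed sign, 25 of these for genes called in neither fit. The rises of Bhlhe40, Bhlhe41 and Cry2 held in all 20 alternatives in both lines.

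Counts of members moved as follows, with the share of all genes tested in the same fit that was called in parentheses. For the lines in normoxia (0 called) the count was 9 without both normoxia replicates numbered 2 (53.6% of all tested genes called) and 0 to 5 with each sample left out (1.1% to 48.9%). For the lines in hypoxia (2 called) it was 3 with DESeq2 (25.7%) and 1 with total counts only (26.8%). It was also 1 with at least 10 counts in every sample (21.7%) and with the replicate block (22%). With only the samples compared it was 5 (57%), and without both normoxia replicates numbered 2 it was 6 (55.8%). It was 0 at a fold of at least 2 (6.81%), and 1 to 4 with each sample left out (10.1% to 42.4%). For the difference between responses (1 called) it was 2 with DESeq2 (10.7%), 0 with total counts only (6.13%), 0 with the replicate block (3.29%), 9 without both normoxia replicates numbered 2 (52.8%), and 0 to 7 with each sample left out (0.493% to 44.4%). In hypoxia against normoxia it ranged from 4 to 8 in wild-type (26.8% to 54%) and 5 to 8 in ΔN-VEGF cells (42.9% to 67.1%) with each sample left out. Of the 12 samples left out in turn, wild-type normoxia replicate 2 gave the highest count of members and the highest share of all genes in each of the 5 comparisons.

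For the other clock genes, the lines in normoxia (0 called) gave 3 with DESeq2 (9.9%), 1 each with total counts only (3.82%), with no filter (1.83%) and with at least 10 counts in every sample (4.54%), 15 without both normoxia replicates numbered 2 (53.6%), and 0 to 9 with each sample left out (48.9% of all tested genes at the highest). The lines in hypoxia (8) gave 18 with only the samples compared (57%), 18 without both normoxia replicates numbered 2 (55.8%), 2 at a fold of at least 2 (6.81%), and 6 to 15 with each sample left out (42.4% at the highest). The difference between responses (2) gave 7 with DESeq2 (10.7% of all tested genes), 19 without both normoxia replicates numbered 2 (52.8%), 1 at a fold of at least 2 (1.56%), and 0 to 14 with each sample left out, the highest without wild-type normoxia replicate 2, where 44.4% of all tested genes were called. Hypoxia against normoxia gave, in wild-type (11) and ΔN-VEGF cells (18), 7 and 12 at a fold of at least 2 (15.7% and 27.2%), 13 and 14 with total counts only (45.6% and 59.8%), and 16 and 21 without both normoxia replicates numbered 2 (65.3% and 71.4%). Rora, which passed the filter only through ΔN-VEGF hypoxia, is counted in the 8 of the lines in hypoxia and in the 18. It is also counted in the 2 and the 12 at a fold of at least 2.

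Sign changed as follows. In ΔN-VEGF cells after hypoxia, Cry1 (-0.01) stood at 0.01 with DESeq2 and RLE factors, 0.03 with at least 10 counts in every sample, 0.05 without both normoxia replicates numbered 2, and -0.12 to 0.05 with each sample left out, and Arntl (0.30) at -0.11 with total counts only. Per2 in wild-type cells (-0.13) ranged from -0.40 to 0.03 with each sample left out. Between the lines in normoxia, Bhlhe40 (0.07) stood at 0.00 with total counts only, -0.21 without both normoxia replicates numbered 2 (adjusted p = 0.0048) and -0.13 to 0.20 with each sample left out, Cry1 (-0.10) at 0.05 without both normoxia replicates numbered 2 and -0.20 to 0.12 with each sample left out, and Per1 (-0.17) at -0.53 to 0.13. Between the lines in hypoxia, Cry1 (0.19) stood at -0.04 and Bhlhe41 (0.22) at 0.00 with total counts only, and Nr1d1 (-0.01) at 0.00 with DESeq2, RLE factors and the replicate block and at -0.05 to 0.06 with each sample left out. The cause of these changes was not tested. Leaving out a sample leaves fewer samples in the fit.

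The replicate block left 4 members called in wild-type cells after hypoxia (Dbp and Per3 lost), 6 in ΔN-VEGF cells and 0 between the lines in normoxia. It gave 11, 18, 0, 8 and 2 other clock genes in the 5 comparisons, where 38.6%, 55.5%, 4.37%, 22% and 3.29% of all tested genes were called. Bhlhe41 held the fewest counts of the members in normoxia, at 55 to 143. Its SE for hypoxia against normoxia in wild-type cells was 0.26. Those of Nr1d1 (0.28), Per1 and Per3 (both 0.38) and Dbp (0.46) were larger, and those of the other members smaller. The effect of depth on precision was not tested.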
